A study of Mus musculus with 15 samples.

Results

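MHC class I and its peptide loading machinery were described through 10 genes of the 46078 in the deposited count table, taken by symbol. They were the heavy chains H2-K1, H2-D1, H2-Q4 and H2-T23, the light chain B2m, the peptide loading genes Tap1, Tap2 and Tapbp, and the immunoproteasome subunits Psmb8 and Psmb9. RNA came from a brain region of 15 mice, 1 library per mouse, and 5 mice stood in each of 3 groups. Anti-CD8a APP-PS1 mice received antibody to CD8a, part of the co-receptor of cytotoxic T cells, in 10 injections of 0.8 mg. APP-PS1 PBS mice carried the same transgenes and were given PBS (100 µL). WT PBS mice were wild type and were given PBS as well. Mice were 12 months old and treatment lasted 4 weeks in every group. The APP Swedish PS1 dE9 mouse is a model of amyloid deposition: it carries a chimeric mouse and human APP695swe and a human presenilin 1 with the dE9 mutation, both driven in neurons of the central nervous system by the prion protein promoter. The antibody was set against PBS and not against an isotype antibody, so effects of an injected antibody as such and of CD8a binding cannot be told apart.

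MHC class I molecules show peptides from inside the cell to CD8 T cells and are made of a heavy chain and the light chain B2m. Proteasomes cut the peptides, the TAP transporter carries them into the endoplasmic reticulum, and tapasin holds an empty class I molecule beside TAP until a peptide is bound. Interferons raise many of these genes and exchange constitutive proteasome subunits for the immunoproteasome ones. In the healthy brain class I is low in neurons and clearer in microglia and endothelium.

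Per library, between 17736524 (APP-PS1 PBS replicate 5) and 36485809 (anti-CD8a replicate 5) counts were assigned to genes, so that 3 counts stood for 0.0822 to 0.169 CPM (CPM being counts scaled to a common library size with TMM factors). App, whose reads include those of the transgene, read 2768 ± 266 CPM in anti-CD8a APP-PS1 and 2713 ± 226 CPM in APP-PS1 PBS mice, against 1264 ± 40.6 CPM in WT PBS mice (SD, n = 5 each). Ttr, which marks choroid plexus, exceeded 1000 CPM in 5 libraries: anti-CD8a replicate 1, APP-PS1 PBS replicates 2 and 5, and WT PBS replicates 3 and 5. APP-PS1 PBS replicate 1 was labelled male and had the female pattern of Xist and Y-linked genes. Sexes were unevenly spread, with 3 labelled males of 5 in either APP-PS1 group and 1 of 5 in the WT group.

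The genes lie in the MHC on chromosome 17 in GRCm38, except B2m (chr2:122147686-122153083, forward strand). H2-K1 (chr17:33996017-34000347, reverse strand) is not far from Tapbp (chr17:33915899-33929292, forward). Psmb9 (chr17:34181987-34187764, reverse), Tap1 (chr17:34187553-34197225, forward), Psmb8 (chr17:34197721-34201454, forward) and Tap2 (chr17:34203527-34216321, forward) follow each other in 1 cluster. H2-D1 (chr17:35262730-35267499, forward), H2-Q4 (chr17:35379617-35385290, forward) and H2-T23 (chr17:36029773-36032855, reverse) lie further along. The exons of Tap1 and Psmb9 overlap on opposite strands over 212 bases. The sources used here do not give the strand setting used in counting, so reads from such overlaps cannot be told apart.

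Promoter windows of 300 bases (250 before and 50 after the start; RefSeq, GRCm38.p6) were found for 9 of the 10 genes and are printed 5′ to 3′ on the gene's strand for the 5 genes that passed the test in any comparison and for H2-K1, the other classical heavy chain, which passed in none in edgeR's test. Capitals mark a kappaB-type match (GGGNNTTCC), an interferon-stimulated response element (ISRE; GAAA, any 2 bases, GAAA) or the shorter interferon element of class I heavy chains (GAANNGAAA). Both strands were searched, and no marked match overlaps another.
H2-K1, chr17:34000298-34000597, reverse strand: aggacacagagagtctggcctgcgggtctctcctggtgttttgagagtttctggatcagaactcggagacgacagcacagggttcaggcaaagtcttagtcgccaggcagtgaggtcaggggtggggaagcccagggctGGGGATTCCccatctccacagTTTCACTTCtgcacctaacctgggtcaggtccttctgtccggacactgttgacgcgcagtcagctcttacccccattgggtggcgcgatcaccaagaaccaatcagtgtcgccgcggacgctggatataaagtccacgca
H2-D1, chr17:35262844-35263143, forward strand: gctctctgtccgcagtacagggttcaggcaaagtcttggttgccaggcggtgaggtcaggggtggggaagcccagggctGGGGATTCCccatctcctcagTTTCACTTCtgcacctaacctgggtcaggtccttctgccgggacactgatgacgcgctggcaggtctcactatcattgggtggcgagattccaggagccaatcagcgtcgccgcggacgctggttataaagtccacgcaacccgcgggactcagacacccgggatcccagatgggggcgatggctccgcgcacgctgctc
H2-Q4, chr17:35379367-35379666, forward strand: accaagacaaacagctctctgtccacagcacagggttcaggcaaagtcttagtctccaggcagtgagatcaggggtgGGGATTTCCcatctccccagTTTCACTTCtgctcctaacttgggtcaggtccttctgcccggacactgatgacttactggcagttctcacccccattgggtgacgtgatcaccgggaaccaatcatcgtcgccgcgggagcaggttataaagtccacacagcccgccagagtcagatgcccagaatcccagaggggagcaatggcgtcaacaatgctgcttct
B2m, chr2:122147437-122147736, forward strand: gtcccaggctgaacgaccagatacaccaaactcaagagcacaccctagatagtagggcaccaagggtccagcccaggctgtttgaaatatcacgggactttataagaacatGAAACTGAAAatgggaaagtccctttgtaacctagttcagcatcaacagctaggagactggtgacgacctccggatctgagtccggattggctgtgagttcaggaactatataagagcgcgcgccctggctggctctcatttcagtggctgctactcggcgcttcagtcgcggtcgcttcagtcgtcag
Tap1, chr17:34187306-34187605, forward strand: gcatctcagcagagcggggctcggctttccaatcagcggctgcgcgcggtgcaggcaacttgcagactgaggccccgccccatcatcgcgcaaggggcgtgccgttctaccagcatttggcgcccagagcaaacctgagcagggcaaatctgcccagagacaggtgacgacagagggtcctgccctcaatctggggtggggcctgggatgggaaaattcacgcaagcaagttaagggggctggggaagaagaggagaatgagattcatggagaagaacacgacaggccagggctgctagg
Psmb8, chr17:34197945-34198244, forward strand: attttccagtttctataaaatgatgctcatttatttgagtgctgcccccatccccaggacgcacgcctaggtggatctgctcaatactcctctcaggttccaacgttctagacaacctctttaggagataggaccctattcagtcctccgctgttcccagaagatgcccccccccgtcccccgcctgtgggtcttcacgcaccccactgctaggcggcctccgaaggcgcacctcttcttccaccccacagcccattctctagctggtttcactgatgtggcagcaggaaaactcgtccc
The windows of H2-K1, H2-D1 and H2-Q4 hold the kappaB-type letters and the interferon element in the same order, a short distance apart. In H2-D1 the kappaB-type match ended 163 bases before the start and the interferon element spanned 150 to 142 bases before it. B2m holds an ISRE match 139 to 130 bases before its start and H2-T23 (not printed) another. Of all 32851 promoter windows, 5.82% hold the kappaB-type letters, 3.44% the ISRE and 7.52% the interferon element, which was added to the search after the windows had been read. The Tap1 window shares 275 bases with that of Psmb9 on the other strand. The windows of Tap1 and Psmb8 hold none of the 3, so they have no capitals. The windows of H2-D1, Psmb8, Tapbp and Psmb9 lie wholly within the gene bounds given above. For these genes the bases before the annotated gene start were not searched. Letters of a gamma-activated site (TTCNNNGAA), an X2 box (TGACGC) and a CCAAT box were searched too and are not marked. Psmb8 holds the first of these (TTCCCAGAA, 97 to 89 bases before its start), as 8.3% of all windows do. A match is a description of letters, not of binding.

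In APP-PS1 PBS mice against WT PBS mice, 2 of the 10 genes passed the test, both of the presenting complex. B2m rose by a factor of 1.58 and H2-D1 by 1.45 in APP-PS1 PBS mice, and no peptide loading or immunoproteasome gene passed. These 2 of 10 genes stood against 0.938% of the 18974 genes tested that rose and 1.03% that moved either way (adjusted p under 0.05 in edgeR's quasi-likelihood test). DESeq2 called the same pair, and 1.76% of all genes. H2-D1, H2-Q4 and B2m had every APP-PS1 PBS library above every WT PBS library, as 1.83% of all genes did. The estimate was positive for 10 of 10 genes, with a median log2 fold change of 0.35, where 46.9% of all genes were positive with a median of -0.0105. Psmb8 of the immunoproteasome, at 0.49, lay above the heavy chains that did not pass, H2-K1 (0.38), H2-T23 (0.40) and H2-Q4 (0.32). Medians were 0.40 in the presenting complex, 0.35 in the immunoproteasome genes and 0.19 in the peptide loading genes. Passing the test thus did not set the presenting complex apart from the immunoproteasome genes.

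In anti-CD8a APP-PS1 mice against WT PBS mice, 5 of 10 genes rose in edgeR's test, against 1.76% of all genes that rose, 0.184% that fell and 1.94% in either direction: H2-D1, H2-Q4 and B2m of the presenting complex, the transporter subunit Tap1, and the immunoproteasome subunit Psmb8. The factor was 1.66 for H2-D1, 1.51 for H2-Q4, 1.64 for B2m, 1.51 for Tap1 and 1.78 for Psmb8. In 7 of 10 genes (H2-D1, H2-Q4, H2-T23, B2m, Tap1, Tap2 and Psmb8) every treated library was above every WT PBS library, as in 2.16% of all genes. DESeq2 called 9 of 10, all but Tapbp, and 2.6% of all genes. The median log2 fold change was 0.60 over the 10 genes, with 10 of 10 positive, and -0.00322 over all genes, 48.9% of them positive.

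In anti-CD8a APP-PS1 mice against APP-PS1 PBS mice, no gene of the 10 passed edgeR's test, and 0% of all genes did. At an unadjusted p under 0.05, 5 of the 10 were higher in treated mice (H2-Q4, Tap1, Tap2, Psmb8 and Psmb9), against 7.59% of all genes. DESeq2 called 0 of the 10 as well, with 0.852% of its 15500 genes called. Tap1 alone had every treated library above every PBS library, as 0.954% of all genes did. The median log2 fold change was 0.23 over the 10 genes, with 10 of 10 positive, and 0.0151 over all genes, 54.1% of them positive. All 3 comparisons share groups, so their values stand side by side and do not support each other.

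**Figure D1:**
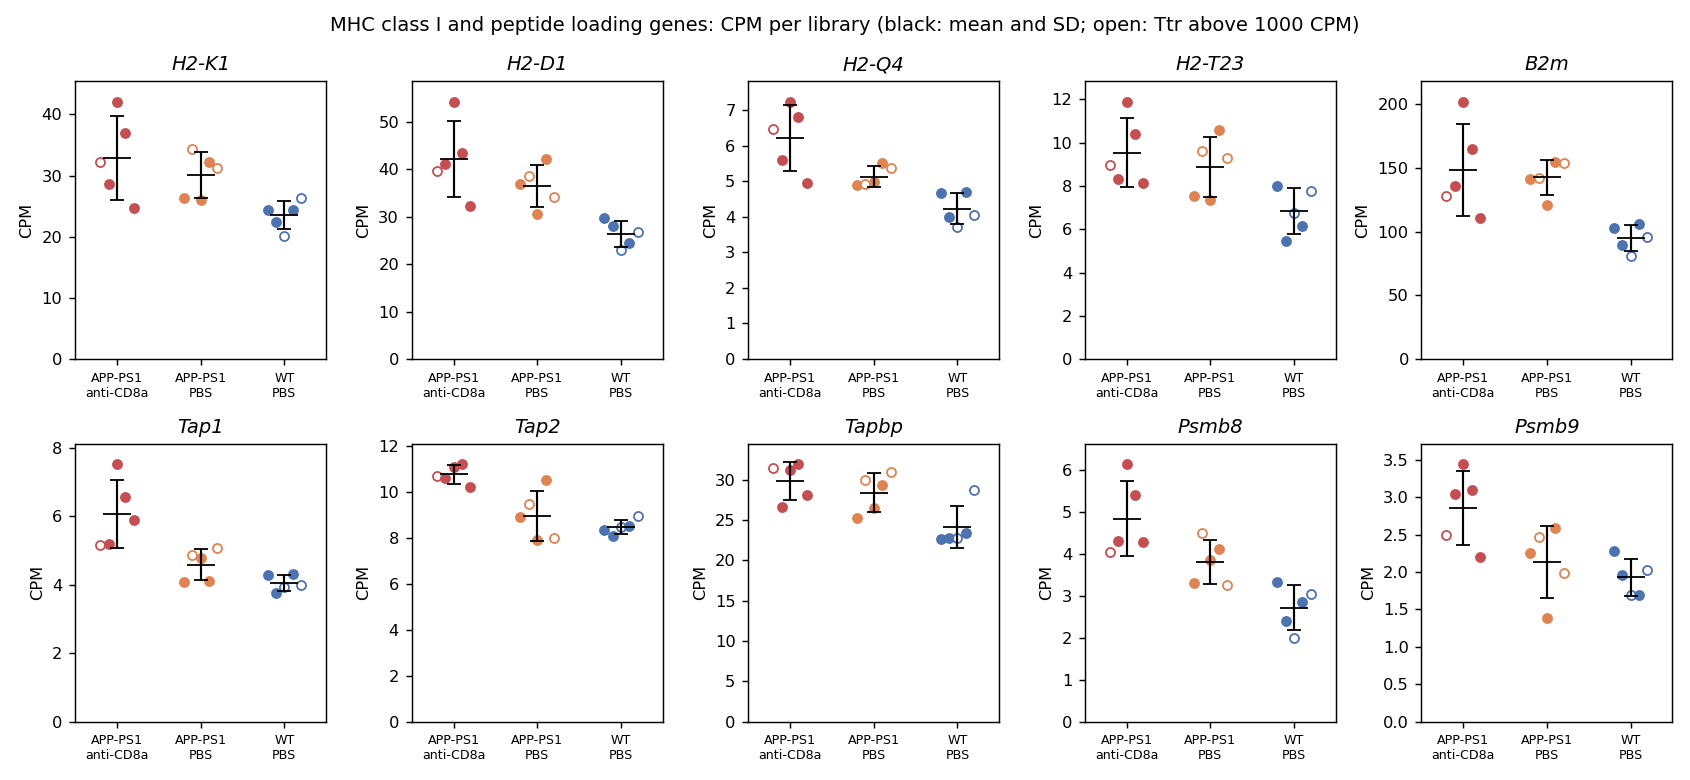
CPM of the 10 genes in each library (y axes, from 0), by group on the x axes with anti-CD8a APP-PS1 left, APP-PS1 PBS next and WT PBS right. Black bars give the mean and SD of 5 libraries, and open circles the 5 libraries with Ttr above 1000 CPM. For B2m, H2-D1 and H2-Q4 both APP-PS1 groups sit above all WT PBS libraries, and for Tap1 the treated libraries sit above all others.

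Set per kilobase of annotated exon, the order of the levels was the same in all 3 groups: B2m, H2-D1, H2-K1, Tapbp, H2-T23, Tap2, H2-Q4, Psmb8, Tap1 and Psmb9. B2m stood at 172, 166 and 110 CPM per kb in anti-CD8a APP-PS1, APP-PS1 PBS and WT PBS mice. H2-D1, next in order, stood at 16.3, 14.1 and 10.2 CPM per kb, and Psmb9, the last, at 0.781, 0.584 and 0.528 CPM per kb. The light chain was thus far above every heavy chain in this scale. H2-T23 and Tap2 overlapped between libraries in every group. H2-D1 and H2-K1, H2-K1 and Tapbp, and Psmb8 and Tap1 overlapped in the treated and the WT PBS groups but not in the APP-PS1 PBS group, while Tap2 and H2-Q4 overlapped in both APP-PS1 groups but not in WT PBS. Lengths are unions of annotated exons, which for all but B2m are longer than the longest coding transcript, and unevenly so. The lengths were 3381 and 1628 bases for Psmb8, 3660 and 1352 for Psmb9, and 5476 and 2953 for Tap1. They were 2938 and 1619 bases for H2-K1, 2889 and 1472 for H2-T23, but 2579 and 2102 for H2-D1. The order of close genes, such as H2-D1 and H2-K1 or Tap1 and Psmb9, thus depends on the length chosen.

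**Figure D2:**
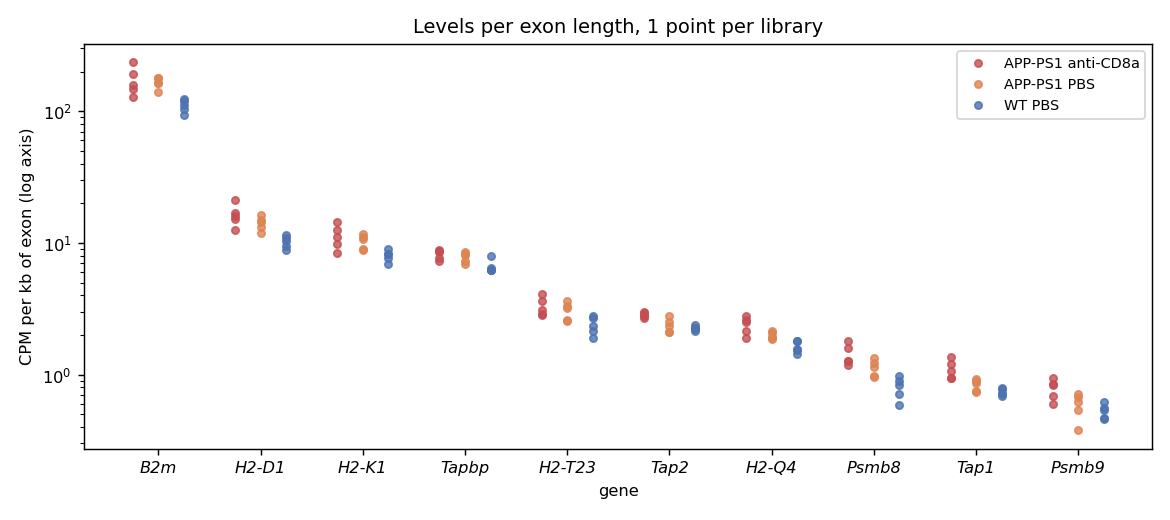
CPM per kb of exon (y axis, log scale) of the 10 genes in order of level (x axis), 1 point per library, with anti-CD8a APP-PS1, APP-PS1 PBS and WT PBS from left to right within a gene. B2m lies around 110 to 172 CPM per kb in the group means and Psmb9 below 1.

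B2m encodes beta-2-microglobulin, the light chain of every classical class I molecule. It read 128, 136, 202, 165 and 111 CPM in anti-CD8a APP-PS1 mice, 141, 142, 121, 155 and 154 CPM in APP-PS1 PBS mice, and 103, 89.8, 80.5, 106 and 95.7 CPM in WT PBS mice. Every APP-PS1 library was above every WT PBS library, and the treated libraries reached both above and below the PBS ones. B2m rose in APP-PS1 PBS against WT PBS mice by 0.66 on the log2 scale (SE 0.13, adjusted p = 0.0138 in edgeR). It rose in treated against WT PBS mice by 0.71 (SE 0.12, adjusted p = 0.00512 in edgeR). Between the APP-PS1 groups, treated minus PBS, the estimate was 0.05, with a 95% interval of -0.20 to 0.30. Both calls held with any 1 library left out, with adjusted p values in edgeR of up to 0.0452 for APP-PS1 PBS and 0.038 for treated mice.

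H2-D1, a classical heavy chain that presents peptides to CD8 T cells, read 39.5, 41.1, 54.2, 43.3 and 32.2 CPM in anti-CD8a APP-PS1 mice, 36.8, 38.5, 30.6, 42.1 and 34.2 CPM in APP-PS1 PBS mice, and 29.6, 28, 22.9, 24.4 and 26.7 CPM in WT PBS mice. All 10 APP-PS1 libraries were above all WT PBS libraries. H2-D1 rose by 0.53 in APP-PS1 PBS against WT PBS mice (SE 0.12, adjusted p = 0.0363 in edgeR) and by 0.73 in treated against WT PBS mice (SE 0.12, adjusted p = 0.00225). The first of these calls was lost without any one of 7 libraries: APP-PS1 PBS replicates 1, 2 and 4, anti-CD8a replicate 1, and WT PBS replicates 2, 3 and 4. The log2 fold change then lay at 0.48 to 0.55 and the adjusted p in edgeR at 0.055 to 0.0919. The treated against PBS estimate in APP-PS1 mice was 0.20 (95% interval -0.03 to 0.43).

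H2-K1, the other classical heavy chain among the 10 genes, read 32.2, 28.6, 42.1, 36.9 and 24.7 CPM in anti-CD8a APP-PS1 mice, 26.4, 34.4, 26, 32.3 and 31.3 CPM in APP-PS1 PBS mice, and 24.4, 22.4, 20.2, 24.4 and 26.4 CPM in WT PBS mice. The highest WT PBS library, replicate 5, lay within both APP-PS1 groups. The log2 fold change was 0.50 in treated against WT PBS mice (SE 0.13, adjusted p = 0.0676 in edgeR), 0.13 in treated against PBS-given APP-PS1 mice, and 0.38 in APP-PS1 PBS against WT PBS mice (adjusted p = 0.28). The ratio of H2-D1 to H2-K1 within a library differed by 0.20 on the log2 scale between treated and WT PBS mice (exact permutation p = 0.0476, adjusted p = 0.102), so H2-D1 was not shown to move more than H2-K1. This pair shares little sequence in the reads: 6.15% of the 75-base stretches of H2-D1 transcripts and 1.12% of those of H2-K1 also occur in transcripts of other genes.

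H2-Q4, a heavy chain of the Q region, read 6.48, 5.59, 7.24, 6.81 and 4.95 CPM in anti-CD8a APP-PS1 mice, 4.89, 4.91, 4.98, 5.52 and 5.36 CPM in APP-PS1 PBS mice, and 4.68, 3.99, 3.72, 4.7 and 4.05 CPM in WT PBS mice. Both APP-PS1 groups lay wholly above the WT PBS group, and 4 of 5 treated libraries lay above all PBS-given APP-PS1 libraries. H2-Q4 rose in treated against WT PBS mice by 0.59 (SE 0.12, adjusted p = 0.0107 in edgeR). Without anti-CD8a replicate 3 this was 0.52 with an adjusted p of 0.094 in edgeR. In APP-PS1 PBS against WT PBS mice the estimate was 0.32 (adjusted p = 0.304 in edgeR).

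H2-T23 encodes the non-classical heavy chain Qa-1, which presents leader peptides of other class I chains to receptors of NK cells and CD8 T cells. It read 8.98, 8.33, 11.9, 10.4 and 8.13 CPM in anti-CD8a APP-PS1 mice, 7.54, 9.61, 7.36, 10.6 and 9.28 CPM in APP-PS1 PBS mice, and 8, 5.47, 6.76, 6.14 and 7.79 CPM in WT PBS mice. The treated group lay just above the WT PBS group, and the PBS-given APP-PS1 group overlapped with both. The log2 fold change was 0.51 in treated against WT PBS mice (SE 0.14, adjusted p = 0.0987 in edgeR) and 0.40 in APP-PS1 PBS against WT PBS mice (adjusted p = 0.285). Of the 75-base stretches of H2-T23 transcripts 13.1% occur in other genes as well, and of H2-Q4 7.91%, so their counts are less certain than those of B2m, for which it was 0%.

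Tap1 encodes a subunit of the transporter associated with antigen processing. It read 5.17, 5.19, 7.51, 6.57 and 5.88 CPM in anti-CD8a APP-PS1 mice, 4.07, 4.87, 4.77, 4.12 and 5.08 CPM in APP-PS1 PBS mice, and 4.27, 3.77, 3.93, 4.32 and 3.99 CPM in WT PBS mice. All treated libraries were above all others, by a narrow gap over APP-PS1 PBS replicate 5, while both PBS groups overlapped. Tap1 rose in treated against WT PBS mice by 0.60 (SE 0.12, adjusted p = 0.0138 in edgeR); without anti-CD8a replicate 3 this was 0.47 with an adjusted p of 0.129. Against PBS-given APP-PS1 mice the treated estimate was 0.41 (SE 0.11, 95% interval 0.16 to 0.65), with an unadjusted p of 0.00269 and an adjusted p of 0.229 in edgeR and 0.0858 in DESeq2. In APP-PS1 PBS against WT PBS mice the estimate was 0.19 (95% interval -0.07 to 0.45).

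Tap2 encodes the other subunit of the transporter. It read 10.7, 10.6, 11.1, 11.2 and 10.2 CPM in anti-CD8a APP-PS1 mice, 8.89, 9.47, 7.91, 10.5 and 8.01 CPM in APP-PS1 PBS mice, and 8.34, 8.08, 8.46, 8.52 and 8.94 CPM in WT PBS mice. The treated libraries were close together (10.8 ± 0.402 CPM, SD, n = 5) and all above the WT PBS libraries. The log2 fold change was 0.35 in treated against WT PBS mice (SE 0.09, adjusted p = 0.054 in edgeR, 0.011 in DESeq2) and 0.26 in treated against PBS-given APP-PS1 mice (SE 0.08, adjusted p = 0.258 in edgeR). In APP-PS1 PBS against WT PBS mice it was 0.09 (95% interval -0.10 to 0.28). The ratio of Tap1 to Tap2 differed by 0.22 between treated and WT PBS mice (exact permutation p = 0.0635, adjusted p = 0.119).

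Tapbp encodes tapasin, which bridges TAP and the empty class I molecule. It read 31.4, 26.6, 31.2, 31.9 and 28.1 CPM in anti-CD8a APP-PS1 mice, 25.3, 30, 26.5, 29.3 and 30.9 CPM in APP-PS1 PBS mice, and 22.7, 22.8, 22.8, 23.4 and 28.7 CPM in WT PBS mice. The fifth WT PBS library stood apart from the other WT PBS libraries and within both APP-PS1 groups. Tapbp passed in no comparison, with log2 fold changes of 0.29 in treated against WT PBS mice (adjusted p = 0.12 in edgeR), 0.07 in treated against PBS-given APP-PS1 mice, and 0.21 in APP-PS1 PBS against WT PBS mice (adjusted p = 0.337). Without WT PBS replicate 5 the treated against WT PBS value was 0.40 with an adjusted p of 0.0189 in edgeR.

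**Figure D3:**
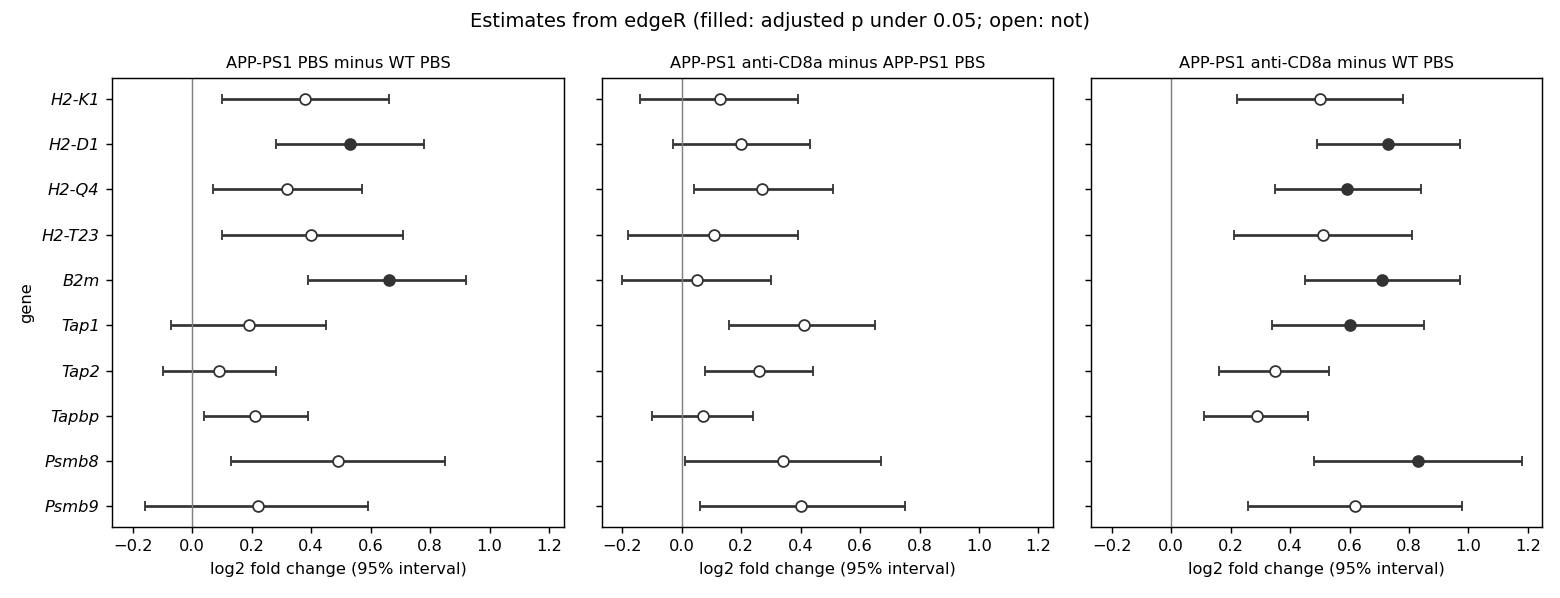
Log2 fold changes of the 10 genes with 95% intervals from edgeR (x axes, log2 scale), 1 panel per comparison, with filled points at an adjusted p under 0.05. All estimates lie right of 0, filled points are B2m and H2-D1 for APP-PS1 PBS minus WT PBS, none for anti-CD8a minus PBS in APP-PS1, and H2-D1, H2-Q4, B2m, Tap1 and Psmb8 for anti-CD8a APP-PS1 minus WT PBS.

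Psmb8 encodes the immunoproteasome subunit that replaces Psmb5. It read 4.04, 4.31, 6.13, 5.4 and 4.29 CPM in anti-CD8a APP-PS1 mice, 3.31, 4.49, 3.85, 4.12 and 3.26 CPM in APP-PS1 PBS mice, and 3.32, 2.39, 1.99, 2.84 and 3.04 CPM in WT PBS mice. The treated libraries were all above the WT PBS libraries, and the PBS-given APP-PS1 libraries overlapped with both. Psmb8 rose in treated against WT PBS mice by 0.83 (SE 0.16, adjusted p = 0.0126 in edgeR), the largest estimate among the 10 genes in any of the comparisons; without anti-CD8a replicate 3 it was 0.67 with an adjusted p of 0.113. It was 0.49 in APP-PS1 PBS against WT PBS mice (SE 0.17, adjusted p = 0.267 in edgeR) and 0.34 in treated against PBS-given APP-PS1 mice (SE 0.16, adjusted p = 0.368).

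Psmb9 encodes the subunit that replaces Psmb6, and had between 33 and 107 counts per library, the fewest of the 10 genes. It read 2.5, 3.05, 3.44, 3.1 and 2.2 CPM in anti-CD8a APP-PS1 mice, 2.25, 2.47, 1.38, 2.59 and 1.99 CPM in APP-PS1 PBS mice, and 2.28, 1.96, 1.7, 1.69 and 2.03 CPM in WT PBS mice. All 3 groups overlapped. The log2 fold change was 0.62 in treated against WT PBS mice (SE 0.17, adjusted p = 0.0896 in edgeR), 0.40 in treated against PBS-given APP-PS1 mice (adjusted p = 0.33) and 0.22 in APP-PS1 PBS against WT PBS mice (adjusted p = 0.672).

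The immunoproteasome subunits were also set against the constitutive ones they replace, as counts of the first per 100 counts of the second in the same library, which needs no scaling between libraries. Psmb8 per 100 Psmb5 was 6.56, 6.64, 10.7, 8.31 and 6.97 in anti-CD8a APP-PS1 mice, 5.63, 7.64, 7.98, 6.53 and 6.95 in APP-PS1 PBS mice, and 4.91, 3.63, 2.88, 4.67 and 4.48 in WT PBS mice. Both APP-PS1 groups lay wholly above the WT PBS group. The mean log2 ratio differed by 0.93 in treated and by 0.77 in PBS-given APP-PS1 mice from WT PBS mice (each exact two-sided permutation p = 0.00794, the smallest that 5 against 5 allows, and adjusted p = 0.0298 over 15 tests). It differed by 0.16 between the APP-PS1 groups (treated minus PBS) (exact p = 0.349). Psmb5, the denominator, passed in no comparison and read 62.2 ± 3.14 CPM in treated, 55.4 ± 7.13 CPM in PBS-given APP-PS1 and 66.7 ± 3.28 CPM in WT PBS mice (SD, n = 5 each; -0.27 in APP-PS1 PBS against WT PBS, adjusted p = 0.153 in edgeR).

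Psmb9 per 100 Psmb6 was 3.67, 4.5, 5.01, 4.35 and 3.43 in anti-CD8a APP-PS1 mice, 3.43, 3.58, 2.15, 3.51 and 3.36 in APP-PS1 PBS mice, and 3.01, 2.81, 2.35, 2.55 and 2.89 in WT PBS mice. The treated libraries all lay above the WT PBS libraries, a log2 difference of 0.62 (exact permutation p = 0.00794, adjusted p = 0.0298). Among PBS-given APP-PS1 libraries 4 of 5 lay above the WT PBS group and replicate 3 below it. The differences were 0.40 for treated against PBS-given APP-PS1 mice (exact permutation p = 0.0317, adjusted p = 0.0952) and 0.22 for APP-PS1 PBS against WT PBS mice (adjusted p = 0.291).

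The remaining pair, Psmb10 and the Psmb7 it replaces, gave 20.2, 18.9, 20.7, 20.2 and 19.8 Psmb10 counts per 100 Psmb7 in anti-CD8a APP-PS1 mice, 17.9, 16.9, 14.1, 20.4 and 15.9 in APP-PS1 PBS mice, and 17.7, 17.7, 18.7, 15.4 and 16.3 in WT PBS mice. The treated group was narrow and above all WT PBS libraries, with a log2 difference of 0.22 (exact permutation p = 0.00794, adjusted p = 0.0298). PBS-given APP-PS1 and WT PBS mice differed by -0.02 (exact p = 0.849). With any 1 library left out, the smallest p that the exact test allows is larger, and no ratio that passed against WT PBS mice kept an adjusted p under 0.05 in every such case. The log2 differences of treated from WT PBS mice then ran from 0.81 to 1.00 for Psmb8/Psmb5, 0.55 to 0.68 for Psmb9/Psmb6 and 0.18 to 0.25 for Psmb10/Psmb7, and that of PBS-given APP-PS1 from WT PBS mice from 0.65 to 0.84 for Psmb8/Psmb5.

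**Figure D4:**
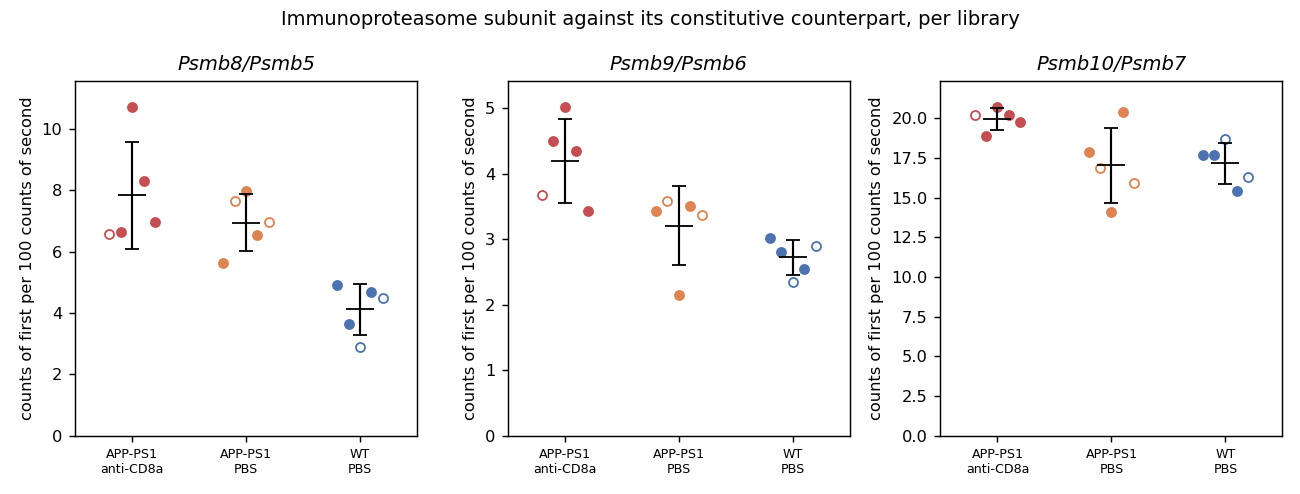
Counts of an immunoproteasome subunit per 100 counts of the constitutive subunit it replaces (y axes, from 0) in each library, by group with anti-CD8a APP-PS1 left, APP-PS1 PBS next and WT PBS right. Bars give mean and SD of 5 libraries and open circles mark Ttr above 1000 CPM. Psmb8/Psmb5 is above all WT PBS libraries in both APP-PS1 groups, while Psmb9/Psmb6 and Psmb10/Psmb7 are so in the treated group.

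Anti-CD8a replicate 3 had the highest CPM of its group in 8 of the 10 genes, Tap2 and Tapbp being highest in replicate 4. Without replicate 3, 2 of 10 genes (H2-D1 and B2m) rose in treated against WT PBS mice in place of 5. Over all genes 128 of 19188 rose without it, in place of 334 of 18974, so the number fell among all genes as well. The 10 genes summed to 269, 269, 377, 321 and 232 CPM in treated, 260, 281, 235, 296 and 284 CPM in PBS-given APP-PS1, and 211, 189, 173, 206 and 207 CPM in WT PBS mice. Replicate 3 was also the library with the highest sums of microglia markers (1341 CPM) and of astrocyte markers (9183 CPM). Within its group it had the highest sum of oligodendrocyte markers as well (6957 CPM).

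Microglia markers were also higher in both APP-PS1 groups than in WT PBS mice. Over 14 markers the summed level was 678, 852, 1341, 829 and 718 CPM in anti-CD8a APP-PS1 mice, 780, 704, 746, 973 and 796 CPM in APP-PS1 PBS mice, and 515, 502, 448, 517 and 483 CPM in WT PBS mice, and no marker was at 0 counts throughout. Of the 14, 13 rose in treated and 11 in PBS-given APP-PS1 mice against WT PBS mice in edgeR, with median log2 fold changes of 1.00 and 0.93. Between the APP-PS1 groups, treated minus PBS, the median was 0.14. Ptprc, the CD45 of all leukocytes, rose by 1.25 and 1.26 against WT PBS mice in treated and PBS-given APP-PS1 mice (adjusted p = 0.000127 and 0.000193 in edgeR). In bulk tissue more cells of a type and more RNA per cell cannot be told apart, and the part of microglia in the class I values was not tested.

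Markers of other cells were read in the same way. The 10 endothelial markers summed to 301 to 368 CPM in treated, 272 to 355 CPM in PBS-given APP-PS1 and 265 to 321 CPM in WT PBS mice, with medians of log2 fold changes of 0.13 and 0.11 against WT PBS mice. The 14 markers of T and NK cells summed to 1.37 to 3.31, 1.66 to 2.97 and 1.53 to 2.48 CPM in treated, PBS-given APP-PS1 and WT PBS mice, and 3 of them were counted often enough to be tested. Cd8a had 53 counts over the treated libraries, 42 over the PBS-given APP-PS1 libraries and 33 over the WT PBS libraries, and Cd8b1, its partner chain, had 14, 13 and 9. A difference in Cd8a between the APP-PS1 groups (treated minus PBS) was not detectable at this depth (log2 estimate 0.07, SE 0.51). The 8 astrocyte markers summed to 7211 to 9183, 7089 to 8133 and 6300 to 7037 CPM in treated, PBS-given APP-PS1 and WT PBS mice. Their median log2 fold changes were 0.18 in treated and 0.16 in PBS-given APP-PS1 mice against WT PBS mice. The estimates ran from -0.09 to 1.29 and from -0.02 to 1.23, and 1 and 2 of the 8 passed. The highest was Gfap, an astrocyte filament, which rose by 1.29 in treated and 1.23 in PBS-given APP-PS1 mice (adjusted p = 0.000127 and 0.000292 in edgeR).

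Choroid plexus markers, which stand for how much of that tissue a dissection held, summed to 69.4 to 2213 CPM in treated, 87.1 to 4850 CPM in PBS-given APP-PS1 and 84.7 to 7561 CPM in WT PBS mice. Without the 5 libraries above 1000 CPM of Ttr, the log2 fold change of B2m was 0.74 in treated and 0.66 in PBS-given APP-PS1 mice against WT PBS mice (adjusted p = 0.06 and 0.272 in edgeR), and that of H2-D1 was 0.79 and 0.63 (adjusted p = 0.0163 and 0.161). In treated against WT PBS mice the other called genes were at 0.52 (H2-Q4), 0.59 (Tap1) and 0.88 (Psmb8) without those libraries, with adjusted p values of 0.246, 0.164 and 0.0607 in edgeR. Those fits have 10 libraries, and of the 10 genes 1, H2-D1 in treated mice, then passed. Of all 19086 genes in those fits, 199 passed in treated and 98 in PBS-given APP-PS1 mice against WT PBS mice. With a covariate for choroid plexus markers and no library left out, the genes called against WT PBS mice kept their calls. Animal numbers fall into 2 series, with 3 and 2 mice per group. H2-D1 in treated against WT PBS mice was 0.75 in the larger and 0.56 in the smaller series on the log2 scale, and in APP-PS1 PBS against WT PBS mice 0.56 and 0.35. B2m was 0.77 and 0.46 in treated against WT PBS mice, and 0.69 and 0.46 in APP-PS1 PBS against WT PBS mice. In either series alone 0 of the 10 genes passed edgeR's test. Few of all genes did: 20 and 8 in treated against WT PBS mice in the larger and smaller series. In APP-PS1 PBS against WT PBS mice 7 and 9 of all genes passed. The fits within a series had no term for sex, so their values are not adjusted for it.

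Further genes of the pathway were read from lists of its parts. Of 21 further class I heavy chains 10 could be tested, and H2-M3, which presents formylated peptides, rose in treated against WT PBS mice by 0.57 (2.97 ± 0.373 against 2.14 ± 0.246 CPM, SD, n = 5 each; adjusted p = 0.03 in edgeR). That call was lost without any one of 7 libraries, at log2 fold changes of 0.52 to 0.58 and adjusted p values of up to 0.195 in edgeR. Its estimate was 0.45 in APP-PS1 PBS against WT PBS mice (adjusted p = 0.16). The medians over these 10 heavy chains were 0.44 in treated and 0.31 in PBS-given APP-PS1 mice against WT PBS mice, and 0.15 between the APP-PS1 groups. H2-M1 and H2-M11 had 0 counts in all libraries.

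Of 5 tested class I-like molecules the lowest adjusted p in edgeR was 0.291, for Procr in treated against PBS-given APP-PS1 mice (-0.72). Among 11 partners in loading and cutting, Hspa5, the chaperone BiP of the endoplasmic reticulum, read 308, 336, 272, 272 and 244 CPM in anti-CD8a APP-PS1 mice, 377, 502, 373, 395 and 315 CPM in APP-PS1 PBS mice, and 354, 401, 360, 403 and 629 CPM in WT PBS mice. The treated libraries lay below all WT PBS libraries, of which replicate 5, the library with the highest sum of choroid plexus markers (7561 CPM), was the highest. Hspa5 fell in treated against WT PBS mice by 0.65 on the log2 scale (adjusted p = 0.0218 in edgeR), and the estimate was -0.43 without WT PBS replicate 5 (adjusted p = 0.139), -0.67 without anti-CD8a replicate 3 (adjusted p = 0.0869) and -0.38 without the 5 libraries above 1000 CPM of Ttr (adjusted p = 0.107). The part of choroid plexus in this value was not tested. The estimates of the chaperones Pdia3 and Calr, which fold class I heavy chains, were -0.27 and -0.23 there (adjusted p = 0.199 and 0.303), and 6 of the 11 partners had positive estimates in that comparison. Over the 14 constitutive proteasome subunits the medians were -0.08 and -0.09 in treated and PBS-given APP-PS1 mice against WT PBS mice, and the smallest adjusted p in any comparison was that of Psmb5.

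Regulators of class I genes were tested as 21 genes. Irf8, an interferon regulatory factor of myeloid cells, rose by 1.21 in treated (adjusted p = 0.000808 in edgeR) and by 0.92 in PBS-given APP-PS1 mice against WT PBS mice (adjusted p = 0.0122; 0.78 without APP-PS1 PBS replicate 4, adjusted p = 0.0506). Nlrc5, the transactivator of class I genes, averaged 4.33 ± 1.46 CPM in treated, 3.16 ± 0.451 CPM in PBS-given APP-PS1 and 2.64 ± 0.397 CPM in WT PBS mice, and rose in treated against WT PBS mice by 0.84 (SE 0.17, adjusted p = 0.0162 in edgeR). Without anti-CD8a replicate 3 it was 0.58 with an adjusted p of 0.165 in edgeR. Stat2, which carries type I interferon signals to the nucleus, rose by 0.32 in the same comparison (adjusted p = 0.0459 in edgeR), a call lost without any one of 11 libraries. Between the APP-PS1 groups, treated minus PBS, the estimates of Nlrc5 and Irf9 were 0.45 and 0.43, with adjusted p values of 0.294 and 0.231 in edgeR. The mean of Irf9, which binds DNA together with Stat2, was 24.5 ± 5.82 CPM in treated and 18.2 ± 1.93 CPM in PBS-given APP-PS1 mice.

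Within groups, the 10 genes did not vary as 1 block. Pearson's r of log2 CPM after subtracting group means, over the 15 libraries, ran from -0.12 for Tap1 with Tap2 to 0.88 for H2-D1 with Psmb9, with a median of 0.60 over the 45 pairs. B2m had r of 0.87 with H2-K1, 0.85 with H2-Q4 and 0.83 with H2-D1, and 0.40 with either Tap2 or Tapbp. Its values with these heavy chains were thus above those with Tap2 and Tapbp. These libraries share depth and tissue makeup, and the values are descriptions with no test.

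**Figure D5:**
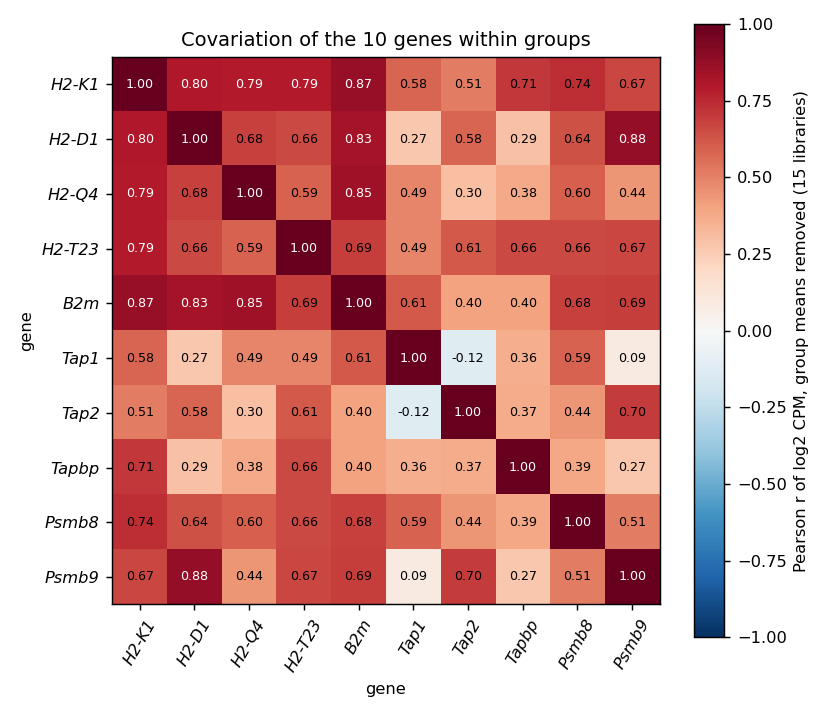
Pearson's r between each pair of the 10 genes over 15 libraries, from log2 CPM with group means removed (color scale from -1 to 1, values printed). The highest value is that of H2-D1 with Psmb9 (0.88), followed by B2m with H2-K1 (0.87), and the lowest that of Tap1 with Tap2 (-0.12).

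Among 15614 genes of at least 1 CPM, those most like each member by this r were named. They are the highest of many values over 15 libraries, so a high r can arise between unrelated genes, and it was not tested. For B2m they included Cd83 (0.91) and Ly86 (0.90). For Tap1 they were Eif2ak2 (0.89), an interferon-induced kinase, Lgals9 (0.86) and 1700047M11Rik (0.85). For H2-D1 they were Gltp (0.90), Myd88 (0.89) and Hmox1 (0.88), and for H2-K1 Atp1b2 (0.91), Sat1 (0.89) and B2m (0.87). H2-Q4 was nearest to Gmfg (0.86), B2m (0.85) and the complement receptor C5ar1 (0.85). Psmb9 was nearest to the ferritin light chain Ftl1 (0.92), the ribosomal gene Rps27 (0.89) and H2-D1 (0.88), and Psmb8 to Pip4k2a (0.89), Rps6 (0.88) and Ankrd40 (0.88). For H2-T23, Tap2 and Tapbp the nearest genes were Rhog (0.95), Ypel3 (0.94) and Smpdl3a (0.92).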

How the data were processed

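Poly(A) RNA of a dissected brain region, which the labels do not name, was sequenced from a stranded kit with 75 cycles, per the labels. The authors deposited 1 table of raw counts of reads per gene, with no normalization. The submitters' processing notes name HTSeq 0.11.2, Bowtie2 2.2.2, FastQC, DESeq2 and build GRCm38. The sources used here do not give options, strand setting or annotation release. Bowtie2 does not split reads at exon junctions, and 18.3% (Tapbp) to 28.6% (H2-K1 and H2-T23) of the 75-base stretches of these genes' longest coding transcripts cross one. Lines that name no gene were left out: per library 20 to 25.9% of reads had no feature, 1.64 to 1.79% were ambiguous and 2.7 to 2.92% not unique.

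Groups came from the labels, with replicates numbered in accession order. A symbol was found for 45143 of 46078 identifiers. Places, exon lengths and shared sequence come from GENCODE M21 (GRCm38), promoters from RefSeq. Tests used edgeR 4.0.16 in R 4.3.3 (quasi-likelihood, two-sided, TMM scaling, filterByExpr by group leaving 18974 genes, group and labelled sex over all 15 libraries, 11 residual degrees of freedom) with Benjamini-Hochberg adjustment over all genes and a threshold of 0.05. Standard errors come from the F statistic. Ratios used log2 counts plus 0.5 and exact permutation tests in scipy 1.17.1, with no term for sex. The tests were tried on simulated data. Floors cover counting error only. Alternatives were DESeq2 1.42.0, limma-voom (limma 3.58.1), other scalings, filters and covariates, subsets of libraries and leaving out each library. Genes other than the 10 were named where they passed the test in any comparison or were among the 4 of smallest p of a pathway list, with a few as checks, and the 3 most alike genes of each member by correlation; Gfap, Cd8b1, H2-M1 and H2-M11 were named after their values were seen. Some genes taken by these rules are not reported here. The members and lists were chosen with earlier results of these data known.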

Additional observations from a re-analysis of the deposited data

Results flagged for a closer look

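For each of the 10 genes and the 5 ratios, each group of 5 libraries was searched for a library far from the others (the gap to the nearest library over the whole range, above 0.71). Of 45 groups 2 held such a library, and chance gives about 1 in 20. Tapbp read 28.7 CPM in WT PBS replicate 5, where the gap was 0.877 of the range. That library had the highest Ttr of all, 6470 CPM, and is from the single WT mouse labelled male. The log2 ratio of Psmb9 to Psmb6 was -5.54 in APP-PS1 PBS replicate 3, with a gap of 0.872 of the range. Psmb9 had 33 counts there, the fewest of any library.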

How the results depend on the processing

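In APP-PS1 PBS against WT PBS mice, 2 of the 10 genes passed. The count was 1 without the sex covariate, 0 in either animal number series alone and 0 without the Ttr-rich libraries. It ran from 1 to 2 with each library left out in turn. Of all genes, 195 passed in the main fit and 115 without the sex covariate. In the larger and smaller series 7 and 9 passed, and without the Ttr-rich libraries 98. In anti-CD8a APP-PS1 against WT PBS mice 5 of the 10 passed. The count was 9 with DESeq2 (all but Tapbp), 0 in either series alone and 1 without the Ttr-rich libraries. With a choroid plexus covariate over all 15 libraries no call among the 10 was lost, and Tapbp passed as well (0.36, adjusted p = 0.0308 in edgeR). Of all genes 259 passed in that fit. H2-K1 and Tap2 also passed with upper-quartile scaling (adjusted p = 0.0474 and 0.0294 in edgeR), and H2-K1 without the filter (adjusted p = 0.0142). It was 2 to 8 with each library left out, 2 without anti-CD8a replicate 3 and 8 without WT PBS replicate 5. Of all genes, 369 passed in the main fit, 533 with DESeq2, and 20 and 8 in the larger and smaller series. That number was 199 without the Ttr-rich libraries, 140 without anti-CD8a replicate 3 and 404 without WT PBS replicate 5. In anti-CD8a against PBS in APP-PS1 mice the count among the 10 was 0 in every alternative run. Of all genes, 0 passed there in the main fit and 132 with DESeq2. Of 840 values of single genes, 785 kept direction and side of the threshold, 32 lost the threshold, 17 gained it and 6 changed sign. Those 6 were not past the test: Tap2 in APP-PS1 PBS against WT PBS mice (-0.12 in the smaller series, -0.01 to 0.15 with each library left out, lowest without APP-PS1 PBS replicate 4), Psmb9 there (-0.15 in the smaller series), and B2m in anti-CD8a against PBS in APP-PS1 mice (-0.01 in the smaller series, -0.07 to 0.13 with each library left out, -0.07 without anti-CD8a replicate 3 and -0.02 without replicate 4). Of 180 ratio values 133 kept direction and side, 39 lost the threshold, 3 gained it and 5 changed sign, all in APP-PS1 PBS against WT PBS mice: log2 Psmb10/Psmb7 was 0.03 without the Ttr-rich libraries and -0.09 to 0.05 with each library left out, 0.05 and 0.00 without APP-PS1 PBS replicates 3 and 5, and 0.01 without WT PBS replicate 3, and log2 Tap1/Tap2 was -0.06 without the Ttr-rich libraries. With fewer libraries the smallest p that the exact test allows is larger. Ratios that lost the threshold with 1 library left out stood at an adjusted p of 0.0595. The number of lost ratio thresholds thus does not measure how stable the ratios are. The smaller sets leave fewer libraries, the fits within a series have no term for sex, and other causes were not tested. No paired analysis was possible because the labels give the groups no shared replicate numbers.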
